A study of Mus musculus with 19 samples.

Results

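The 5 kainate receptor subunit genes of the mouse, Grik1 to Grik5, were taken by gene symbol from the 3 deposited RNA-seq tables, which together list 35734 genes. Grik2, Grik3, Grik4 and Grik5 have a row in every table. Grik1 has a row in the 14 day and E17.5 tables, and its 48 h response was not analysed here.

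Kainate receptors are glutamate-gated ion channels built of several subunits. Grik1, Grik2 and Grik3 encode GluK1, GluK2 and GluK3, which can form channels by themselves, while Grik4 and Grik5 encode GluK4 and GluK5, which bind kainate tightly but need one of the former to make a working channel. In the mouse retina, OFF cone bipolar cells receive cone input largely through receptors that contain GluK1, and kainate receptors are also found in other retinal neurons. Neto1 and Neto2 encode auxiliary proteins that slow or strengthen the currents of these channels.

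The factor under study, Pou3f1, is a transcription factor of the POU family. To overexpress it, a Gfp control plasmid or a Pou3f1 plasmid was electroporated in vivo into eyes of CD1 wild-type pups at postnatal day 1, and GFP-positive cells were sorted and pooled to about 150000 cells per replicate. At 48 h there were 3 libraries of each kind, and at 14 days 4 of Gfp and 5 of Pou3f1 cells. The sample labels give the later age as 14 days after transfection, while the protocol gives postnatal day 14. In the knockout experiment, whole retinas of C57B6J embryos labelled E17.5, a late embryonic age, were compared between 2 libraries heterozygous and 2 homozygous for the Pou3f1 knockout. The labels give E17.5 as the stage of collection, but the name of the deposited table gives E14, so the age is uncertain; E17.5 is used below as the labelled age. Heterozygous and homozygous retinas both carry at least 1 knockout allele. Neither the promoter of the plasmids nor the kind of knockout allele is stated in the labels.

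Each table holds 1 comparison made by the authors, with 1 log2 fold change, p-value and adjusted p per gene and no value per library, so depth and spread of single libraries are unknown. The overexpression tables add a standard error (SE) and a mean normalized count, and the E17.5 table gives neither. The median SE over tested genes was 0.199 and 0.150. A gene is called higher or lower where the authors' adjusted p was under 0.05. The family was chosen by symbol, but with its fold changes and adjusted p-values in all 3 tables already known (it was selected on those values as much as on its name), so the calls below describe the members and are no independent test of them. As a check of direction for overexpression, the authors' deposited tables put Pou3f1 itself at 0.91 ± 0.26 (48 h) and 5.57 ± 0.27 (14 days) on the log2 scale. At 48 h it was 1.87-fold higher (adjusted p = 0.0233, authors' deposited table) at a mean count of 37278.7, and 110 of 14714 tested genes lay above it. At 14 days it was 47.6-fold higher at a mean count of 16971.5. The level of Pou3f1 in the Gfp cells is not given, and the reason for the smaller 48 h value was not tested. The name of the E17.5 table sets HET before KO, but no column states which group is over which. Pou3f1 is at -0.69 there (authors' deposited table). A negative value was taken to mean lower in the knockout, because Pou3f1 should be lower there. The direction at E17.5 is thus an assumption that Pou3f1 cannot check, and the order in the name would read the other way. The labels do not name separate animals for the libraries, so the p-values may measure technical spread only.

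The genes lie on 5 chromosomes of the mm10 build (GENCODE M21). Grik1 is at chr16:87895900-88290265 on the minus strand, Grik2 at chr10:49094833-49788766 on the minus strand, Grik3 at chr4:125490700-125714173 on the plus strand, Grik4 at chr9:42518135-42944493 on the minus strand and Grik5 at chr7:25009849-25072346 on the minus strand. All 5 are protein-coding. Grik2 spans 694 kb and Grik5 62.5 kb, and Grik3 has 1 annotated transcript against 11 each for Grik1 and Grik2. No exon of another gene overlaps the exons of Grik1, Grik2, Grik3 or Grik5. For Grik4 the predicted gene Gm24420 overlaps an exon, so reads there may belong to either.

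Promoter sequence was at hand for 4 of the 5 genes (RefSeq, GRCm38.p6, the same assembly as mm10), and those of Grik3 and Grik2 are shown. Grik3 changed in opposite directions at the 2 ages. Grik2 was called higher at the later age, but so were Grik4 and Grik5, whose sequence is not shown. Each run is the 250 bases before the RefSeq start in the 5′ to 3′ direction of the gene, from chr4:125490446-125490695 on the plus strand for Grik3 and chr10:49788755-49789004 on the minus strand for Grik2. Capitals mark GC boxes, searched as GGGCGG on both strands.
Grik3: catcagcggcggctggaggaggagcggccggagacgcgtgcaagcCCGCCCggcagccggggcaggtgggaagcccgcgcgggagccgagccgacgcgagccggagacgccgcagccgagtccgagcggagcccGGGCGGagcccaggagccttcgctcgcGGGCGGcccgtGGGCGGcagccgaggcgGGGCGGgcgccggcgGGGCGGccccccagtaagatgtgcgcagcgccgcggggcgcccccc
Grik2: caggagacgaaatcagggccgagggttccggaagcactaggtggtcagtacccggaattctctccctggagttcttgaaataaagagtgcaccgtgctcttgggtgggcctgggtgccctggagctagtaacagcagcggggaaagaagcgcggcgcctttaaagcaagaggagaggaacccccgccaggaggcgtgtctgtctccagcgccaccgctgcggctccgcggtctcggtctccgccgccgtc
Grik3 holds 6 GC boxes in this window, Grik5 2, Grik4 1 and Grik2 0, and 32.7% of 32851 promoters hold at least 1. The 2 windows shown thus hold the most and the fewest GC boxes of the 4. Grik3 is also rich in CG pairs, with 42 in 250 bases, more than in 99.1% of promoters, against 20 for Grik2, 36 for Grik4, 8 for Grik5 and a median of 6. The octamer ATGCAAAT, the classical POU factor sequence, searched on both strands, is in 0 of these 4 windows and in 1.60% of all. These matches describe letters only and are no evidence of binding.

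Of the subunits that can form channels alone, Grik3 (ENSMUSG00000001985) moved most. At 48 h it was lower in cells given Pou3f1 than in Gfp controls, and at 14 days it was higher. The authors' deposited table lists Grik3 at 48 h with a mean normalized count of 2155 and a log2 fold change of -1.13 ± 0.19, which is 2.19-fold lower (adjusted p = 1.22e-06). Among 14714 tested genes, 16 had a lower fold change. At 14 days the authors' deposited table lists it with a mean count of 428 and a log2 fold change of 1.03 ± 0.18, which is 2.04-fold higher (adjusted p = 1.64e-06), and 2.27% of 17789 tested genes lay above it. Shrinkage of these values toward 0 by the authors is not stated and was not tested. Of the genes in the lists used below, P2ry12, Fezf1 and Aif1 had a mean count under 5 at 48 h. Their SE in the authors' deposited table was 0.155, 0.159 and 0.179, below the median of 0.199 over tested genes. If shrinkage was applied, the folds, the 2-fold limit, the differences between ages and the distances between genes all rest on shrunken values. At 48 h, 1.56% of all tested genes were called lower and 1.48% higher, and at 14 days 11.5% were called higher.

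Grik3 was the only 1 of the 4 members with a 48 h row that was called at that age. Its 14 day value minus its 48 h value was 2.16 ± 0.26 on the log2 scale, with a 95% interval from 1.64 to 2.67. Of 14580 genes tested at both ages, 34 had a larger difference. Genes called lower at 48 h and higher at 14 days numbered 23, or 0.158% of those tested at both ages, with Grik3 among them. No test was made of the difference, since Grik3 was known for it beforehand, and the intervals given for it and the other members describe the SE only. The 2 ages have separate Gfp and Pou3f1 libraries and share none.

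Grik2 (ENSMUSG00000056073) had a positive fold change at both ages and was called at the later one. At 48 h the authors' deposited table gives 0.47 ± 0.18 at a mean count of 403 (adjusted p = 0.162, from an unadjusted 0.0110). By 14 days it was 0.84 ± 0.25, or 1.79-fold higher, with 131 as its mean count (adjusted p = 0.00783, authors' deposited table). The difference between the ages was 0.37 ± 0.31, with a 95% interval from -0.24 to 0.98.

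Grik1 (ENSMUSG00000022935), the subunit gene of OFF cone bipolar cells, was the member called lower at 14 days. Its log2 fold change was -0.40 ± 0.15, or 1.32-fold lower, with 2731 as its mean count (adjusted p = 0.0395, authors' deposited table). The share of all tested genes called lower at that age was 9.21%. Adjusted over all genes with a p-value, without the authors' abundance limit, it no longer passed (Benjamini-Hochberg adjusted p = 0.0524). Of 6920 genes with a mean count of at least 1000 at 14 days, 106 have no row at 48 h, among them Grik1, and so have 5 of 12 bipolar cell markers and 6 of 8 rod markers.

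Of the subunits that need a partner, Grik5 (ENSMUSG00000003378) was abundant and shifted little, and Grik4 (ENSMUSG00000032017) was scarce. Grik5 had log2 fold changes of 0.24 ± 0.13 at 48 h (adjusted p = 0.420) and 0.33 ± 0.10 at 14 days (adjusted p = 0.00850) in the authors' deposited tables, the latter 1.26-fold higher, at mean counts of 1885 and 3392. Its difference between the ages was 0.10 ± 0.17, with a 95% interval from -0.23 to 0.43. Grik4 went from -0.24 ± 0.26 at 48 h (adjusted p = 0.742) to 0.68 ± 0.24 at 14 days (adjusted p = 0.0282) in the authors' deposited tables, the latter 1.60-fold higher, at mean counts of 95.3 and 82.5. For Grik4 the difference was 0.93 ± 0.35, with a 95% interval from 0.24 to 1.62.

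At 14 days all 5 members were called, 4 higher and 1 lower, at a median log2 fold change of 0.68, against 20.7% of all tested genes called in either direction and a median of -0.01. At 48 h 1 of 4 was called, against 3.04% in either direction, at a median of -0.004 beside -0.006 for all tested genes. Under an adjusted p of 0.01, 3 of the 5 remained called at 14 days, without Grik1 and Grik4.

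**Figure D1:**
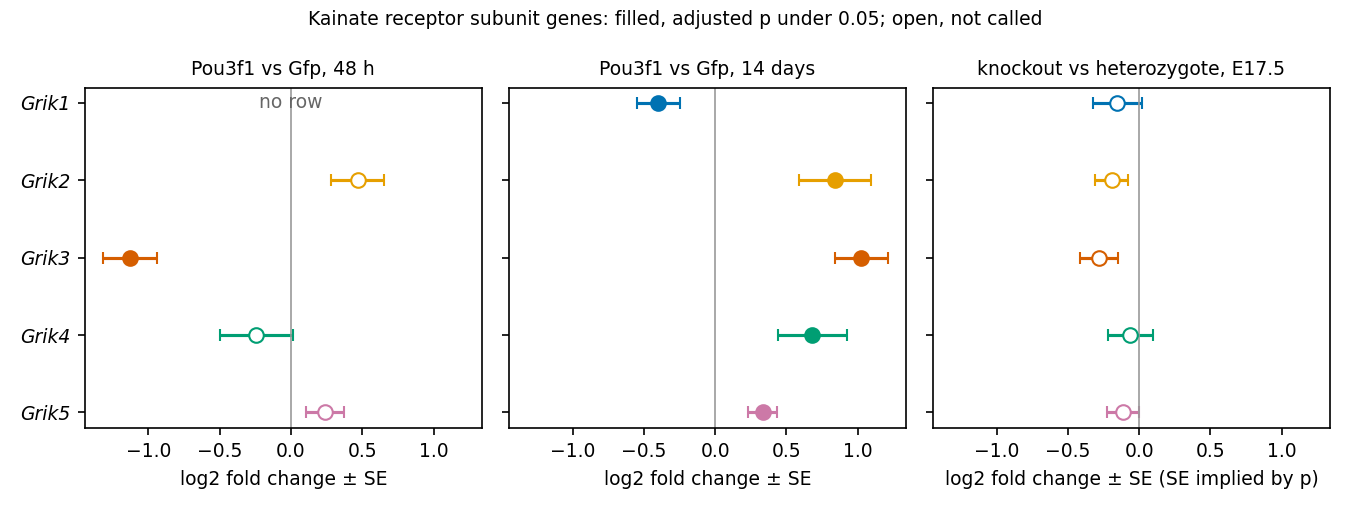
Log2 fold change (horizontal axis, bars show the SE) of each kainate receptor subunit gene in the 3 comparisons, with filled points for an adjusted p under 0.05 and bars at E17.5 computed from the p-value. Grik3 sits at -1.13 at 48 h and at 1.03 at 14 days, Grik1 at -0.40 at 14 days, and all 5 open points at E17.5 lie below 0.

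**Figure D2:**
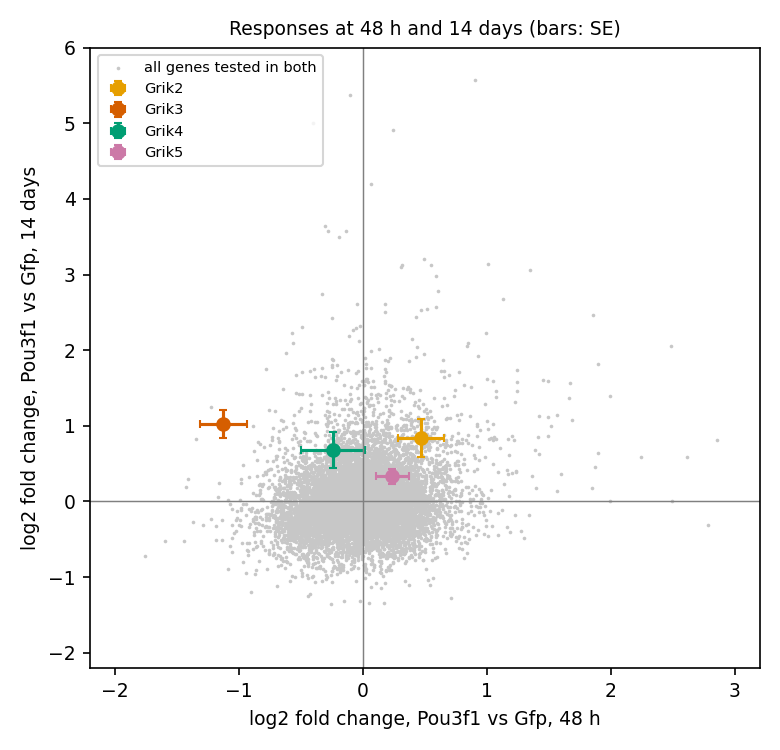
Log2 fold change of Pou3f1 over Gfp cells at 48 h (horizontal axis) and 14 days (vertical axis) for the 14580 genes tested at both ages (grey) and 4 members (coloured, bars show the SE). Grik3 lies in the upper left, apart from most genes, and Grik2 and Grik5 in the upper right.

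In the knockout comparison no member was called. Values on the log2 scale in the authors' deposited table were -0.28 for Grik3, -0.19 for Grik2, -0.15 for Grik1, -0.11 for Grik5 and -0.06 for Grik4 (adjusted p between 0.174 and 0.892). All 5 were thus negative, read as lower in the knockout, and 49.2% of 14821 tested genes were, as were 11 of 12 tested AMPA, NMDA and delta receptor genes. At an unadjusted p under 0.05, 1 of the 5 passed, Grik3 (p = 0.0306 in the authors' deposited table, whose tool is not stated for that comparison; DESeq2 is named for the series), against 21.2% of tested genes. At E17.5, 4.70% of tested genes were called higher and 5.34% lower. If the E17.5 p-value comes, like those of the other 2 tables, from a two-sided normal test on fold change divided by SE, the 95% intervals run from -0.54 to -0.03 for Grik3, from -0.42 to 0.03 for Grik2, from -0.49 to 0.19 for Grik1, from -0.33 to 0.11 for Grik5 and from -0.37 to 0.25 for Grik4. A fall by more than 0.54 or a rise by more than 0.25 on the log2 scale lies outside all 5 intervals.

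Amacrine cell markers moved in that comparison, with 8 of 9 tested lower and a median log2 fold change of -0.87, among them Tfap2a (-1.18) and Gad1 (-1.36), which encode a transcription factor and a GABA-synthesising enzyme (adjusted p between 3.03e-33 and 8.76e-13, authors' deposited table). The members' own median was -0.15, beside 0.003 for all tested genes. In whole retina, fewer cells of a type and less RNA per cell cannot be told apart. The part of amacrine cells in the members' values was not tested.

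The members differ widely in level. Per kb of exon, the mean normalized count at 48 h was 365 for Grik5, 240 for Grik3, 30.5 for Grik2 and 16.0 for Grik4. At 14 days it was 656 for Grik5, 406 for Grik1, 47.6 for Grik3, 13.8 for Grik4 and 9.87 for Grik2. The deposited mean is over all libraries of a comparison and has no SD, so it cannot be said which neighbours in these orders differ beyond their spread. The tables were normalized separately, and levels are set across them only as shares. Of the summed level per kb of Grik2 to Grik5, Grik3 made up 36.9% at 48 h and 6.55% at 14 days, and Grik5 56.0% and 90.2%. The length used moves Grik2 most: by the median coding transcript it stands at 142 per kb at 48 h, beside 240 for Grik3. Grik2 and Grik4 change places at 14 days with the length used, since Grik2 has 45.9 and Grik4 17.7 per kb by the median coding transcript.

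Ranked within each table, 87.6% of tested genes had a lower mean count than Grik3 at 48 h and 46.7% at 14 days. For Grik5 these shares were 85.0% and 85.1%, for Grik2 45.8% and 33.0%, and for Grik4 23.3% and 28.9%. Grik1 stood above 81.5% of tested genes at 14 days. The fall of Grik3 at 48 h was therefore measured at a high count and its rise at 14 days at a middling one.

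**Figure D3:**
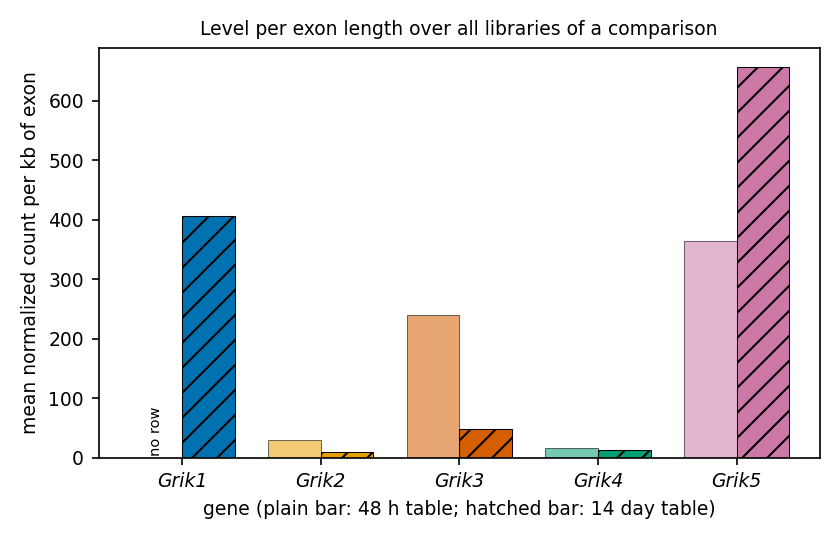
Mean normalized count per kb of exon (vertical axis, from 0) of each member over all libraries of the 48 h table (plain bars) and of the 14 day table (hatched bars), which were normalized separately and carry no error. Grik5 is the highest bar in both tables at 365 and 656, and Grik3 stands at 240 and 47.6.

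**Figure D4:**
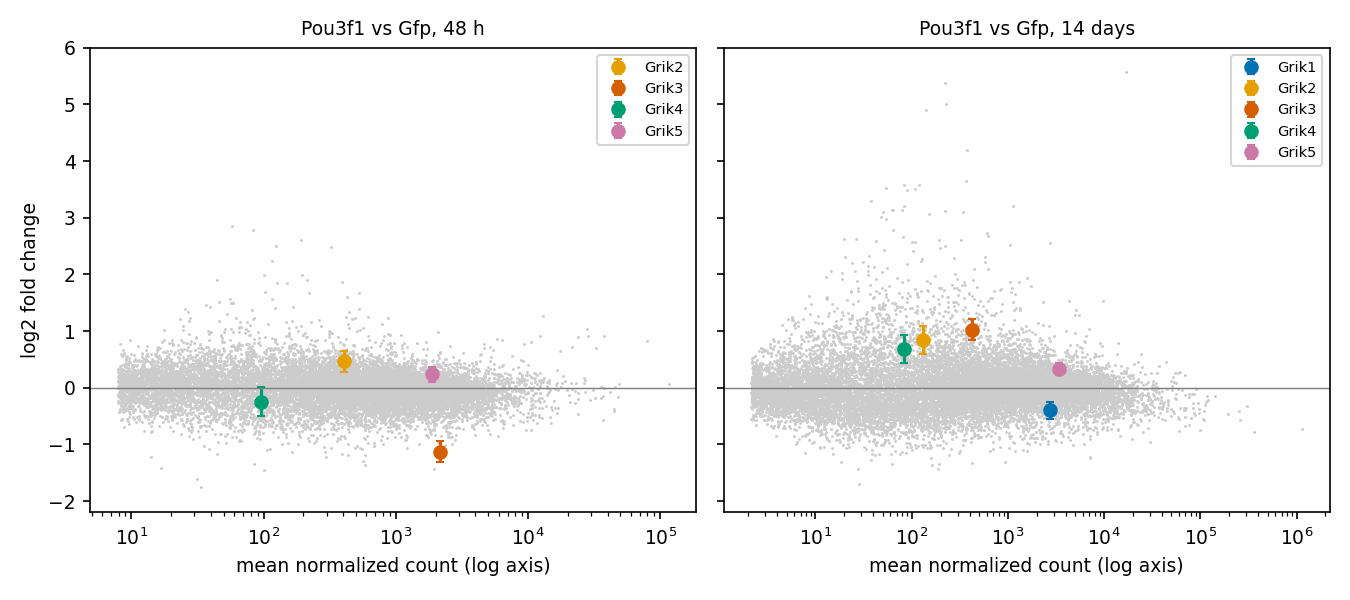
Log2 fold change (vertical axis) against mean normalized count (horizontal log axis) for all tested genes (grey) and the members (coloured, bars show the SE) at 48 h and 14 days. Grik3 lies below the cloud of genes of its abundance at 48 h and on its upper side at 14 days.

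Of the auxiliary proteins, Neto2 rose at both ages. For Neto2 the log2 fold changes in the authors' deposited tables were 0.63 ± 0.17 at 48 h (adjusted p = 0.0167) and 1.72 ± 0.19 at 14 days (adjusted p = 4.91e-18), at mean counts of 986 and 834. Neto1 was at 0.88 ± 0.30 (adjusted p = 0.0786) and 0.15 ± 0.23 (adjusted p = 0.691) in the authors' deposited tables and was not called. Neither was called at E17.5, where the values were 0.16 for Neto2 and 0.25 for Neto1 (adjusted p = 0.377 and 0.359, authors' deposited table).

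Partners of kainate receptors are the proteins that anchor, move, bind or edit them. Of 14 tested, 0 were called at 48 h, and 3 rose and 2 fell at 14 days, with medians of -0.08 and 0.03. Of all tested genes, 3.04% were called in either direction at 48 h, and 11.5% were called higher and 9.21% lower at 14 days. Grip1, a scaffold of AMPA and kainate receptors, rose by 0.52 ± 0.14, the scaffold kinase gene Cask by 0.35 ± 0.10 and Adar, an RNA-editing enzyme gene, by 0.38 ± 0.11 at 14 days (adjusted p between 0.00263 and 0.00773, authors' deposited table). The scaffold gene Dlg1 was at -0.30 ± 0.10 and C1ql3, whose secreted product binds kainate receptors at hippocampal synapses of the mouse, at -0.31 ± 0.09 (adjusted p between 0.00652 and 0.0275, authors' deposited table).

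The other ionotropic receptors, of AMPA, NMDA and delta type, are given beside the family. The adjusted p was under 0.05 for 0 of 13 at 48 h, 2 of 13 at 14 days and 1 of 12 at E17.5, beside 1 of 4, 5 of 5 and 0 of 5 kainate subunits. Of all tested genes, 3.04% were called in either direction at 48 h and 20.7% at 14 days. At E17.5, 4.70% were called higher and 5.34% lower. The counts of the receptor families were not tested against each other, and the kainate family was chosen with its calls known. The AMPA gene Gria2 (0.48 ± 0.14) and the NMDA gene Grin3a (0.33 ± 0.12) rose at 14 days (adjusted p between 0.00803 and 0.0304, authors' deposited table). Gria1 fell at E17.5 with a log2 fold change of -0.92 (adjusted p = 5.51e-08, authors' deposited table). Medians of these genes were 0.10 (48 h), 0.33 (14 days) and -0.12 (E17.5).

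**Figure D5:**
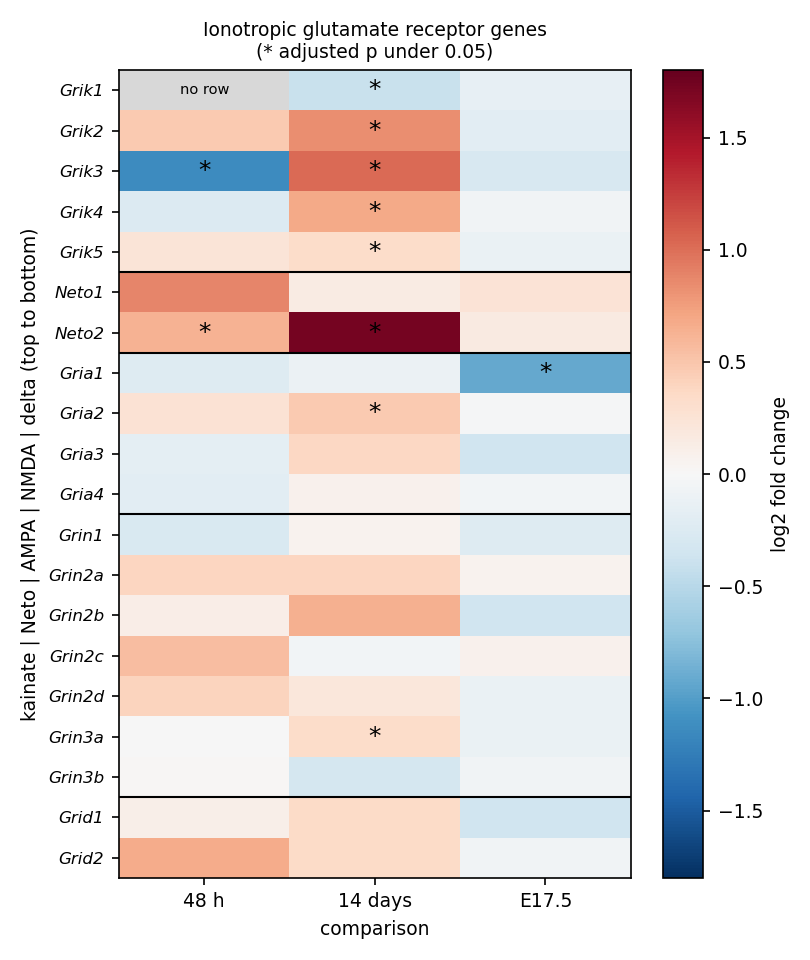
Log2 fold change (colour) of the kainate, Neto, AMPA, NMDA and delta receptor genes (rows) in the 3 comparisons (columns), with stars for an adjusted p under 0.05 and grey where a table has no row. The kainate block carries 5 stars at 14 days and the 13 AMPA, NMDA and delta genes carry 2, beside 20.7% of all tested genes called.

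Of 10 genes of glutamate release and clearance, 4 fell and 1 rose at 14 days, and the median log2 fold change was -0.30. Of all tested genes at that age, 9.21% were called lower and 11.5% higher. Glul, glutamine synthetase of Müller glia, was at -0.96 ± 0.19, the glutamate transporter gene Slc1a2 at -0.39 ± 0.11 and the vesicular transporter gene Slc17a7 of photoreceptors and bipolar cells at -0.57 ± 0.16 (adjusted p between 1.51e-05 and 0.00485, authors' deposited table). Slc1a1, a neuronal transporter gene, rose by 0.44 ± 0.14 (adjusted p = 0.00976, authors' deposited table). At 48 h 1 of 9 tested fell, Slc1a2 with -0.51 ± 0.16 (adjusted p = 0.0372, authors' deposited table), at a median of -0.44. At E17.5 3 of 10 fell, at a median of -0.07. Of all tested genes, 1.56% were called lower at 48 h and 5.34% at E17.5.

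Markers of the retinal cell types that may carry these receptors moved as well at 14 days. Of 10 genes listed as OFF cone bipolar markers 5 rose and 0 fell, with a median log2 fold change of 0.45. Those that rose included Nnat (1.54 ± 0.14), Pcdh17 (0.87 ± 0.16), Prkar2b (0.56 ± 0.16) and Erbb4 (0.63 ± 0.19) (adjusted p between 2.05e-26 and 0.0102, authors' deposited table). Lhx3 was called as well, at 0.55 ± 0.20 (adjusted p = 0.0342, authors' deposited table). Vsx1 and Tacr3 were not called, at 0.28 ± 0.19 and 0.33 ± 0.21 (adjusted p = 0.303 and 0.275, authors' deposited table). Nor were Fezf1 (0.34 ± 0.27), Irx6 (0.11 ± 0.19) and Syt2 (-0.26 ± 0.25) (adjusted p between 0.393 and 0.739, authors' deposited table). The mean counts of Nnat, Prkar2b and Pcdh17 at 48 h were 10556, 875 and 727, beside 59.5 for Lhx3. Whether Nnat, Prkar2b and Pcdh17 mark OFF cone bipolar cells in these libraries was not tested. Of 12 general bipolar markers 2 rose and 2 fell at 14 days, at a median of -0.04. Beside the 11.5% of all tested genes called higher, amacrine markers rose in 3 of 10, at a median of 0.40, and progenitor markers in 5 of 9, at a median of 0.59. Ganglion cell markers rose in 3 of 10, one of them Isl1, which is also in the general bipolar list, but 6 of the 10 had values below 0 and their median was -0.09. Horizontal cell markers rose in 0 of 6. Beside the 9.21% of all tested genes called lower, rod and cone markers were lower in 6 of 8 each. Müller glia markers were lower in 3 of 8, and vessel markers in 1 of 6. Microglia markers were higher in 7 of 7, at a median of 1.66. The tables give no level per group, so the range of these lists in each group cannot be given. The part of any of these cell types in the members' changes was not tested.

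At 48 h few genes of these lists were called, but several lists had medians below 0. Of all tested genes at 48 h, 50.9% were below 0, 1.56% were called lower and 1.48% higher. No 48 h row exists for 6 of 8 rod, 5 of 12 general bipolar and 2 of 8 cone markers. Müller glia markers were below 0 in 7 of 7 tested, at a median of -0.32, general bipolar markers in 7 of 7, at -0.30, cone markers in 6 of 6, at -0.25, rod markers in 2 of 2, at -0.52, vessel markers in 5 of 6, at -0.39, and amacrine markers in 8 of 10, at -0.28. Microglia markers were below 0 in 4 of 5, at -0.34, ganglion cell markers in 7 of 10, at -0.16, and progenitor markers in 6 of 9, at -0.18, while OFF cone bipolar markers had a median of 0.08 over 8 tested and horizontal cell markers 0.17 over 6. Called lower was 1 gene each of the OFF cone bipolar, general bipolar, cone and vessel lists, and 0 were called higher in these 11 lists.

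The genes nearest to a member were found by Euclidean distance over the 3 log2 fold changes among 13164 genes tested in all 3 tables, which is a description over 3 comparisons only. For Grik3 they were Tmem92, Tnfrsf19 and Enc1, at distances of 0.253, 0.354 and 0.406. Tmem92 had log2 values of -1.23 (48 h), 1.25 (14 days) and -0.34 (E17.5) in the authors' deposited tables. For Grik2 they were Cmpk2, Kcnd2 and Slc16a10, for Grik4 Gli2, Syt7 and Ky, and for Grik5 Klhl32, Map4k4 and Pkia, with distances between 0.0234 and 0.106. Neighbours of Grik3 were thus farther away than those of the other members. With signed normal quantiles of the p-values in place of fold changes, 2 of these 12 genes were again among the nearest, Tmem92 for Grik3 and Gli2 for Grik4.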

How the data were processed

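RNA was measured in 19 libraries in 6 groups. The tools are Salmon, DESeq2 and MACS2 with the mm10 build, per the submitters' processing notes, while versions, roles, annotation and design formula are not stated there. Per the file headers, the overexpression tables hold as signal the authors' mean normalized count over the libraries of a comparison. The log2 fold changes and SE are those the authors deposited. The Wald score was deposited by the authors and equals the log2 fold change over its SE, as checked on the values. The p-value and the adjusted p were deposited by the authors, and Benjamini-Hochberg over the genes with an adjusted p gives the latter back. Genes tested are those with an adjusted p.

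Members and 18 gene lists were chosen with earlier results of these data known, so neither gets a test of its own. The lists are described by counts and medians. Differences between ages use the SE of both tables and a 95% normal interval. Levels were divided by exon length (GENCODE M21). Named genes are the members, Pou3f1, up to 4 called genes per list by adjusted p, and the 3 genes nearest to a called member; predicted symbols were left out, and a few called genes are not reported here. Neto1, Vsx1, Tacr3, Fezf1, Irx6 and Syt2, which were not called at 14 days, were picked after their values were seen. So were Lhx3, Aif1, P2ry12 and the genes named under other observations. Alternatives tried were a stricter adjusted p (0.01), a fold limit of 2, p-values adjusted over every gene, minimum mean counts (5 and 10), median centring and other lengths. Scripts were tested on simulated data and ran in Python 3.11.15 (scipy 1.17.1, numpy 2.4.6, pandas 2.3.3, figures by matplotlib 3.10.9).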

Additional observations from a re-analysis of the deposited data

How the results depend on the processing

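The 48 h call of Grik3 passed under all 5 alternatives, so the count stayed at 1 of 4. Of the 5 members called at 14 days, 3 passed at an adjusted p under 0.01 and 1, Grik3, at a 2-fold limit; 4 passed with adjustment over all genes, where Grik1 was lost. Of the AMPA, NMDA and delta subunits, tried after the data were seen, 1 passed at 14 days under 0.01 and 0 with the 2-fold limit, and 0 at E17.5 with the latter. Median centring moved each difference between ages by less than its SE. The Grik5 level per kb was 1.52 times that of Grik3 at 48 h and 13.8 times at 14 days by exon length, 1.93 and 17.53 times by the longest transcript and 2.09 and 18.9 times by the median coding transcript. No paired analysis was possible because the tables hold no values per library, and for the same reason leaving out replicates was not run. Depth per library is unknown, and Grik4 has the largest SE of the members at 48 h.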

Other observations

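Besides Grik3, 22 genes were called lower at 48 h and higher at 14 days. They include Cacng3, which encodes an auxiliary protein of AMPA receptors, with log2 fold changes of -0.88 and 0.66, the potassium channel gene Kcnd3 with -0.73 and 0.53, the axon guidance ligand gene Slit1 with -0.64 and 0.95, the receptor kinase gene Kit with -0.68 and 0.69, and the synaptic adhesion gene Sdk1 with -0.86 and 0.54 (adjusted p between 3.01e-05 and 0.0490, authors' deposited tables). The opposite order, higher at 48 h and lower at 14 days, was found for 20 genes. Expected chance counts were not computed, and the 2 ages were fitted by the authors separately.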
